A study of Homo sapiens with 15 samples.

Results

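The genes described here are 10 textbook genes of the epithelial-mesenchymal transition (EMT): CDH1, EPCAM, CDH2, VIM, FN1, ZEB1, ZEB2, SNAI1, SNAI2 and HMGA2. They were taken by gene symbol from count tables that hold 43388 genes, and all 10 had a row. The list was chosen with earlier results of these data known, so the shares of members called below are not independent of those results. Transcripts were measured by RNA-seq in A549, a human lung adenocarcinoma cell line of alveolar basal epithelial origin, with the genotype given as wild type. All cells were harvested after 72 hours in either 95% oxygen (hyperoxia) or 21% oxygen (normoxia). At each oxygen level 3 libraries had been treated with 1e-05 mM all-trans retinoic acid (ATRA), 2 with its ethanol vehicle, both begun 24 hours before the exposure, and 2 were labelled with the oxygen level alone. The last are called untreated here. The cells were a single adult tumour line in culture, and the labels do not say whether replicate libraries came from separate cultures, so the tests measure only the spread between these libraries.

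The 14 libraries held between 2642377 and 5605072 counts on genes, so that 3 counts, taken here as the limit of detection, corresponded to between 0.535 and 1.14 counts per 1000000 counts (CPM). All levels below are CPM after TMM scaling over these 14 libraries. Untreated hyperoxia replicate 1 stood apart, with 12657 genes detected against 16465 to 20108 in the 13 others and with 610 genes at 0 that had at least 10 counts in every other library. Results that turn on it are given with and without it, and likewise for hyperoxia ATRA replicate 1, which lay at -76.6 on the second principal component of the 10 vehicle and ATRA libraries while the 9 others lay between -12.5 and 33.7. Reads assigned to no gene made up 67.0% to 68.1% of the reads given to a gene, to none or to several in hyperoxia and 68.7% to 70.4% in normoxia, 2 ranges that did not overlap, and their part in the differences below was not tested. Epithelial markers, summed over KRT7, KRT8, KRT18, KRT19, CDH1 and EPCAM, stood at 3317 to 7001 CPM in hyperoxia and 7221 to 11879 CPM in normoxia. Keratins made up most of this sum, and EPCAM had a count in only 4 of the 7 hyperoxia libraries. The summed markers of fibroblasts were at most 23.2 CPM over 8 genes with DCN at 0, those of endothelial cells at most 6.26 CPM over 5 genes with VWF and TEK at 0, and those of blood cells at most 15.3 CPM over 5 genes with CD3E at 0.

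In EMT, epithelial cells loosen their contacts, lose apical-basal polarity and take on the shape, matrix and motility of mesenchymal cells. CDH1 encodes E-cadherin, the calcium-dependent adhesion molecule of epithelial adherens junctions, and EPCAM encodes an epithelial adhesion glycoprotein. CDH2 encodes N-cadherin, VIM the intermediate filament vimentin and FN1 the matrix glycoprotein fibronectin, which are classical mesenchymal products. ZEB1, ZEB2, SNAI1 (Snail) and SNAI2 (Slug) encode zinc finger repressors that bind E-box letters in the CDH1 promoter, and HMGA2 encodes an architectural chromatin protein that is repressed by let-7 microRNAs. Carcinoma lines such as A549 can carry products of both states at once, and retinoids are known to promote epithelial differentiation in many carcinoma cells.

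RefSeq promoter entries were given for 5 members, CDH2, VIM, FN1, ZEB1 and ZEB2, and the 250 bases before the annotated start are shown for a mesenchymal gene that was higher in hyperoxia with vehicle, one that was lower, a repressor that was higher and one whose difference did not pass the test. Each runs 5′ to 3′ on the gene's strand, in lower case, with 4 kinds of motif searched on both strands and set in capitals. These were the E-box of the ZEB and Snail factors (CAGGTG or CACCTG), the AP-1 site (TGANTCA), the CRE (TGACGTCA) and the GC box (GGGCGG or CCGCCC), each overlapping match counted. On GRCh38.p14 the windows are VIM chr10:17227991-17228240 on the plus strand, FN1 chr2:215436069-215436318 on the minus strand, ZEB2 chr2:144520120-144520369 on the minus strand and the first of the ZEB1 entries chr10:31318167-31318416 on the plus strand.
VIM: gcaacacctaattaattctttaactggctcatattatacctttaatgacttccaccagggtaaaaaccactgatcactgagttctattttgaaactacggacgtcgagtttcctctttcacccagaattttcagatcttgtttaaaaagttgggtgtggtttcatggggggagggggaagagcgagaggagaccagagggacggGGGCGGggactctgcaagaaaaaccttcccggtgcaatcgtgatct
FN1: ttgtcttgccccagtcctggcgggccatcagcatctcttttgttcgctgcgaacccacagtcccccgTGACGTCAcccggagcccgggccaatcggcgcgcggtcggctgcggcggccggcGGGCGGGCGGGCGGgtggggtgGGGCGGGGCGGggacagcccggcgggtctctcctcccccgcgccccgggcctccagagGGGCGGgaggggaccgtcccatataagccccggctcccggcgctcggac
ZEB2: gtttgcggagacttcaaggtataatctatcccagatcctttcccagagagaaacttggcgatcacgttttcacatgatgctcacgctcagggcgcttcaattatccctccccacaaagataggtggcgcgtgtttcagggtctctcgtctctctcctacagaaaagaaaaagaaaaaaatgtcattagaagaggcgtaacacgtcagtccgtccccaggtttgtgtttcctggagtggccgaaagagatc
ZEB1: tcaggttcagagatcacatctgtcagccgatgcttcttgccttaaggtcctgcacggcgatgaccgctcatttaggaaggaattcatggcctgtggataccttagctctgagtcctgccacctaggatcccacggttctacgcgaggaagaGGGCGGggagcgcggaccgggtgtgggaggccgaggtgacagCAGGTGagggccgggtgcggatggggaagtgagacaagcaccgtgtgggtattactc
Counted back from the start, VIM held 1 GC box at -46, FN1 held a CRE at -183 and 6 GC box matches, some of them overlapping, ZEB1 held an E-box at -57 and a GC box at -99, and ZEB2 held none of these letters. Over all 35116 promoter windows of this length, 17.5% held the E-box, 6.57% the AP-1 letters, 1.65% the CRE and 42.6% a GC box. These matches describe letters only.

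On GRCh38.p14, in the RefSeq annotation, the adhesion genes are CDH1 at chr16:68737292-68835537, EPCAM at chr2:47369311-47387020 and CDH2 at chr18:27932879-28177130, the cytoskeletal and matrix genes VIM at chr10:17228241-17237593 and FN1 at chr2:215360865-215436068, and the chromatin gene HMGA2 at chr12:65824460-65966291. The repressors are ZEB1 at chr10:31318417-31529804, ZEB2 at chr2:144384081-144520119, SNAI1 at chr20:49982980-49988886 and SNAI2 at chr8:48917598-48921429.

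Per length of the canonical GENCODE 44 transcript, the level in normoxia with vehicle ran from vimentin at the top to Slug at the bottom. VIM stood at 361 ± 36.1 CPM per kilobase (SD, n = 2) and FN1 at 58.1 ± 14.1, followed by CDH1 at 9.96 ± 1.72, HMGA2 at 6.97 ± 0.292 and ZEB1 at 6.54 ± 0.638. CDH2 reached 3.71 ± 0.379 CPM per kilobase, EPCAM 1.54 ± 0.584, SNAI1 1.18 ± 0.0558 and ZEB2 0.719 ± 0.0968, and SNAI2 had no count in these 2 libraries. HMGA2 and ZEB1 did not differ beyond their spread, nor did EPCAM and SNAI1. Dividing by the summed exon length instead moved the level of 7 of the 10 genes by more than the SD and placed ZEB1, at 4.49, above HMGA2, at 1.90 CPM per kilobase.

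**Figure D1:**
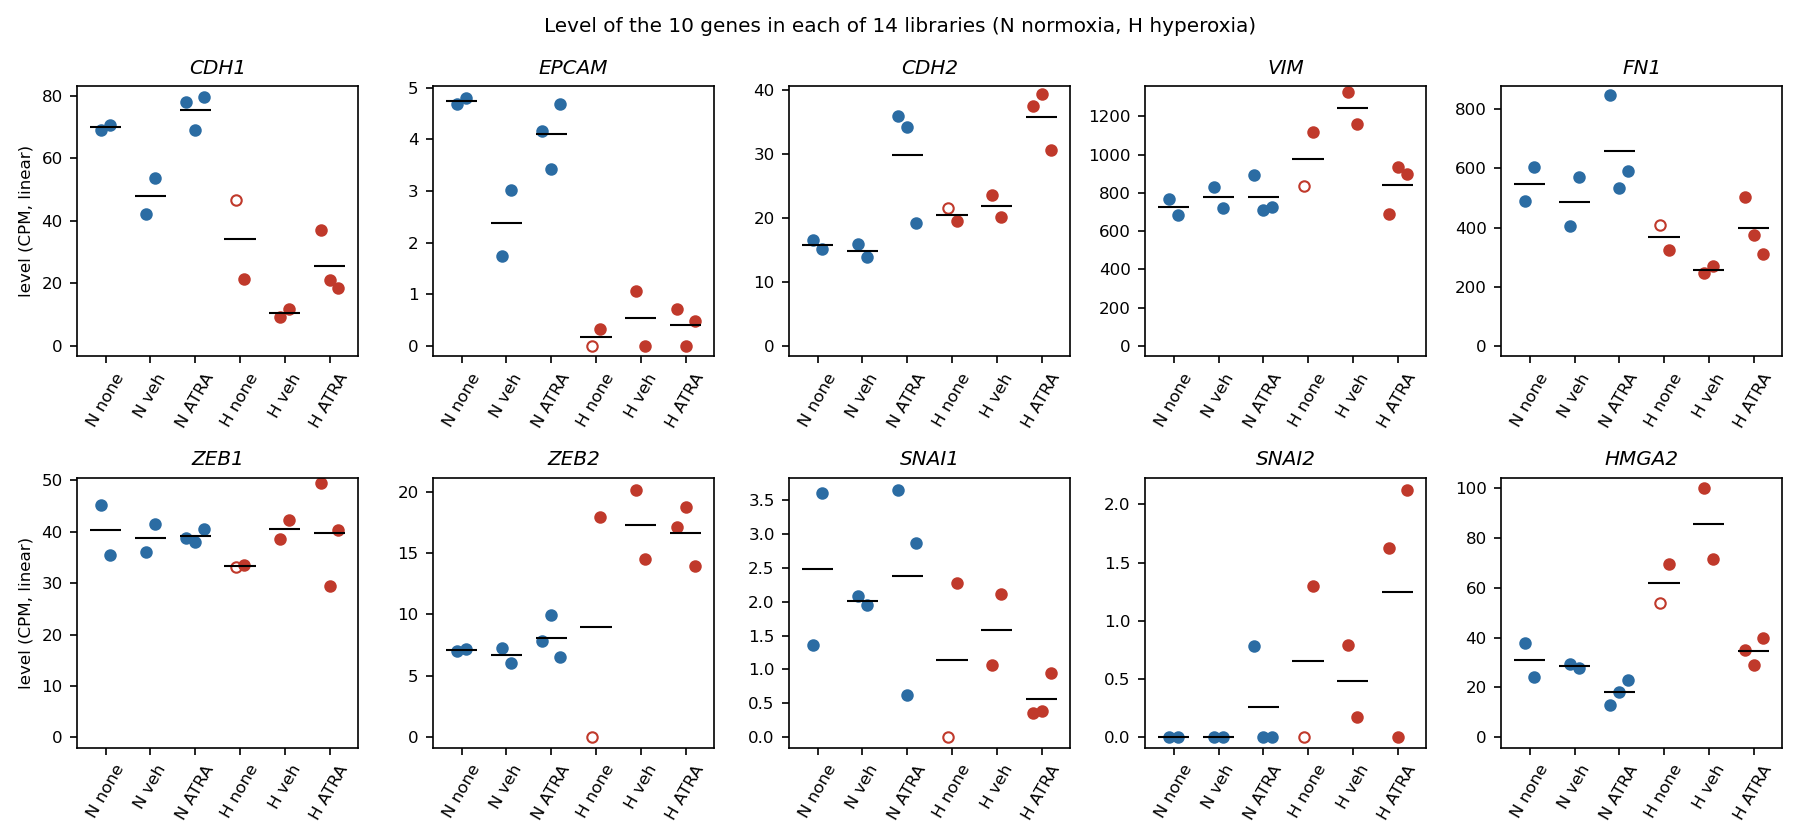
Level of each of the 10 genes in CPM (vertical axis, linear) in 14 libraries, by group (horizontal axis; N normoxia, H hyperoxia, veh ethanol vehicle), with 1 point per library and a line at the group mean. The open point is untreated hyperoxia replicate 1, which had 12657 genes detected. EPCAM is the only panel in which the 7 hyperoxia libraries and the 7 normoxia libraries do not overlap.

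The first comparison asked what hyperoxia did to these genes when vehicle alone was given. Hyperoxia lowered E-cadherin and fibronectin transcripts and raised vimentin, ZEB2 and HMGA2 transcripts. By edgeR's quasi-likelihood test at an adjusted p under 0.05, 5 of the 9 genes tested passed, 3 higher and 2 lower, beside 17.5% of all 14957 genes tested, 8.68% higher and 8.81% lower. The median absolute log2 fold change over the 9 genes was 0.92, beside 0.44 over all genes. SNAI2 was too rare to be tested. EPCAM and SNAI1 were tested at a few counts per library, and EPCAM passed the filter on low counts through the normoxia libraries. With ATRA present at both oxygen levels, 5 of the 9 again passed, 2 higher and 3 lower, beside 22.7% of all genes (11.4% higher and 11.3% lower). EPCAM was among the 3 lower and, given how it passed the filter, is not counted as support. Both comparisons come from one fit of 10 libraries but have no library in common. Where groups of 2 or 3 libraries are said below not to overlap, this is a description only. The share of all genes without overlap was counted only for 7 against 7 libraries.

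CDH1 was lower in hyperoxia with vehicle and with ATRA. With vehicle its level was 42.1 and 53.7 CPM in normoxia and 9.28 and 11.8 CPM in hyperoxia. With ATRA it was 78.0, 69.0 and 79.6 CPM in normoxia and 37.0, 21.0 and 18.4 CPM in hyperoxia, and in neither treatment did the oxygen groups overlap. The log2 fold change was -2.17 (SE 0.30, edgeR adjusted p = 1.64e-05) with vehicle, a 4.51-fold lower level, and -1.54 (SE 0.22, edgeR adjusted p = 2.93e-05) with ATRA. Each passed in all 10 fits that left out 1 library. In these bulk libraries, fewer cells with E-cadherin RNA and less E-cadherin RNA per cell cannot be told apart. In untreated cells, CDH1 was 69.0 and 70.8 CPM in normoxia and 46.5 and 21.5 CPM in hyperoxia, where the higher value belongs to the library that stood apart. The log2 fold change there was -1.02 (SE 0.34, edgeR adjusted p = 0.0556) and did not pass, and without that library -1.70 (edgeR adjusted p = 0.00178).

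EPCAM was at 0 to 4 counts in each hyperoxia library and passed the filter on low counts through the normoxia libraries. Its calls are therefore given as descriptions, not as support. Its level was 4.68 and 4.80 CPM in untreated normoxia, 1.74 and 3.02 CPM with vehicle and 4.17, 3.43 and 4.68 CPM with ATRA. In hyperoxia the values in the same order were 0 and 0.326, then 1.06 and 0, then 0.721, 0 and 0.472 CPM. All 7 hyperoxia libraries lay below all 7 normoxia libraries, as was so for 7.31% of the 15339 genes tested over the 14 libraries, while 6.34% lay wholly above and 13.7% did not overlap in either direction. Summed over the 7 libraries each, 11 counts stood against 111, a level 10.5-fold lower in hyperoxia relative to total depth (95% exact interval 5.63 to 21.6, counting error only). The test passed with ATRA, at -3.10 (SE 1.09, edgeR adjusted p = 0.0452), but not with vehicle, at -2.29 (SE 1.34, edgeR adjusted p = 0.282), and the call with ATRA was lost when any one of 8 libraries was left out (edgeR adjusted p up to 0.106), but not without hyperoxia ATRA replicate 1. In untreated cells, 1 count stood against 44, a depth-scaled ratio of 0.0264 with a 95% exact interval of 0.000654 to 0.155. That interval covers counting error only, not the spread between libraries, and the hyperoxia counts include the library that stood apart. The log2 fold change of -4.86 (SE 1.65, edgeR adjusted p = 0.0587) did not pass, and without the library that stood apart it was -3.75 (edgeR adjusted p = 0.219).

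VIM, the most abundant of the 10 genes, rose in hyperoxia with vehicle. Its level with vehicle was 833 and 723 CPM in normoxia and 1327 and 1159.5 CPM in hyperoxia, without overlap. This was a log2 fold change of 0.68 (SE 0.15, edgeR adjusted p = 0.00337), a 1.60-fold higher level. The call was lost without hyperoxia vehicle replicate 1 (0.55, edgeR adjusted p = 0.0715) and without normoxia vehicle replicate 2 (0.55, edgeR adjusted p = 0.0861). With ATRA the levels overlapped, at 893, 711 and 726 CPM in normoxia and 689, 935 and 899 CPM in hyperoxia, and the log2 fold change of 0.11 (SE 0.13, edgeR adjusted p = 0.566) did not pass. In untreated cells the values were 767 and 685 CPM in normoxia and 835 and 1119 CPM in hyperoxia, at 0.43 (SE 0.18, edgeR adjusted p = 0.116), and without the library that stood apart the log2 fold change was 0.62 (edgeR adjusted p = 0.0338). The count of VIM is uncertain, because the antisense gene VIM-AS1 overlaps 18.7% of its span and held 70.8% as many counts. VIM-AS1 moved with it, by 0.88 (edgeR adjusted p = 0.00186), and the part of these reads in the VIM value was not tested. The libraries kept strand, but in every one of them TALAM1 held between 1.87 and 2.01 times the counts of MALAT1, to which it is antisense, so reads of a gene and of its antisense partner were not taken as told apart. The same limit holds for the levels and ratios of all 10 genes, and its size was not tested.

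FN1 fell in hyperoxia with vehicle and with ATRA. With vehicle its level was 404 and 571 CPM in normoxia and 244 and 271 CPM in hyperoxia. With ATRA it was 848, 534 and 591 CPM in normoxia and 504, 376 and 312 CPM in hyperoxia. The hyperoxia values lay below all normoxia values of the same treatment. FN1 had a log2 fold change of -0.92 (SE 0.21, edgeR adjusted p = 0.00383) with vehicle and -0.73 (SE 0.17, edgeR adjusted p = 0.00389) with ATRA, corresponding to 1.89-fold and 1.65-fold lower levels. The first was lost without normoxia vehicle replicate 2, at -0.67 (edgeR adjusted p = 0.0928). In untreated cells, FN1 was 490.1 and 604 CPM in normoxia and 408 and 325 CPM in hyperoxia, a log2 fold change of -0.58 (SE 0.24, edgeR adjusted p = 0.12), and -0.75 without the library that stood apart (edgeR adjusted p = 0.0706). The neighbouring gene ATIC, which encodes a purine synthesis enzyme and overlaps 10.3% of the FN1 span, held 39.4% as many counts and stood at -0.06 (edgeR adjusted p = 0.826) with vehicle.

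CDH2 did not pass the test between the oxygen levels. Its level was 16.0 and 13.8 CPM in normoxia and 23.6 and 20.1 CPM in hyperoxia with vehicle, and 16.6 and 15.1 CPM against 21.6 and 19.5 CPM in untreated cells. In both, each hyperoxia value lay above each normoxia value, while with ATRA the groups overlapped, at 36.0, 34.3 and 19.3 CPM in normoxia and 37.5, 39.4 and 30.7 CPM in hyperoxia. With 2 libraries against 2, such an order is a description and not evidence of a difference. The log2 fold changes were 0.56 (SE 0.31, edgeR adjusted p = 0.25), 0.38 (SE 0.34, edgeR adjusted p = 0.475) and 0.26 (SE 0.24, edgeR adjusted p = 0.469). Set against each other within a library, which needs no scaling, CDH2 held 0.464 to 2.54 counts per count of CDH1 in the 7 hyperoxia libraries (median 1.67) and 0.214 to 0.498 in the 7 normoxia libraries (median 0.257). CDH2 thus exceeded CDH1 in count in 5 of the 7 hyperoxia libraries and in none of the normoxia libraries. The lowest hyperoxia ratio, 0.464, was that of the library that stood apart, and the next was 0.909. This ratio is a description without a test.

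**Figure D2:**
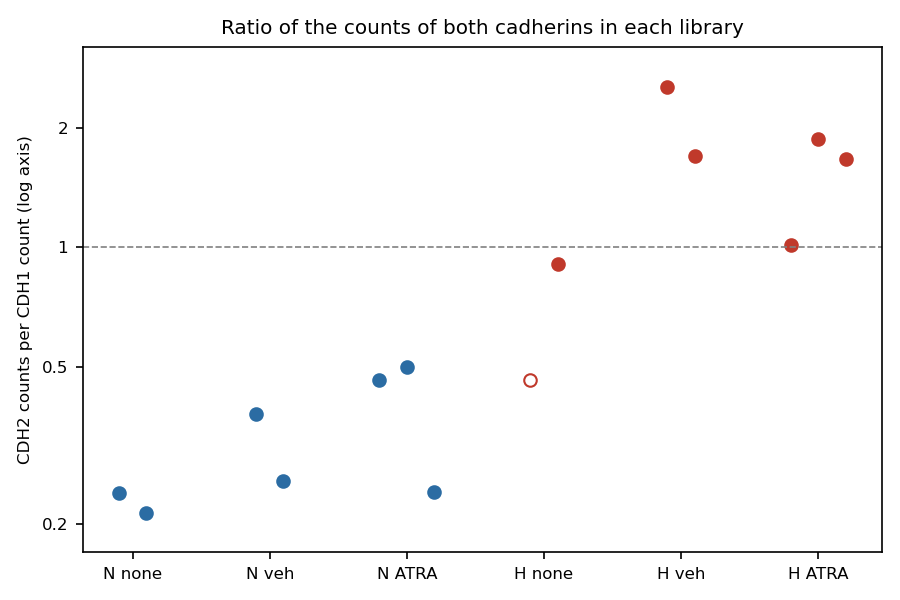
Counts of CDH2 per count of CDH1 (vertical axis, log scale, dashed line at 1) in each of the 14 libraries, by group (horizontal axis; N normoxia, H hyperoxia, veh ethanol vehicle). The 7 normoxia points lie between 0.214 and 0.498, and the hyperoxia points between 0.464, the open point of the library that stood apart, and 2.54.

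Among the repressors, ZEB2 rose in hyperoxia with vehicle and with ATRA, while ZEB1 did not pass the test. ZEB2 was 7.30 and 6.03 CPM in normoxia and 20.1 and 14.5 CPM in hyperoxia with vehicle, and 7.82, 9.99 and 6.51 CPM and 17.1, 18.7 and 13.9 CPM with ATRA. Neither pair of groups overlapped. ZEB2 had a log2 fold change of 1.38 (SE 0.39, edgeR adjusted p = 0.0172) with vehicle, 2.61-fold higher, and 1.03 (SE 0.32, edgeR adjusted p = 0.0229) with ATRA, 2.05-fold higher. Leaving out single libraries ended the call with vehicle in 3 of 10 fits (without hyperoxia vehicle replicate 1, normoxia vehicle replicate 1 or normoxia vehicle replicate 2, edgeR adjusted p = 0.22, 0.0792 and 0.182). With ATRA it also ended in 3 of 10, without normoxia ATRA replicate 1 or 3 or hyperoxia ATRA replicate 2 (edgeR adjusted p = 0.0715, 0.104 and 0.0637). In untreated cells, ZEB2 was 7.02 and 7.20 CPM in normoxia and 17.9 CPM in hyperoxia replicate 2, but had no count in replicate 1, the library that stood apart, and its log2 fold change was 0.28 (SE 0.99, edgeR adjusted p = 0.873). Without that library it was 1.33 (edgeR adjusted p = 0.0612), with the lone remaining sample assumed to vary like the other groups.

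ZEB1 lay between 29.5 and 49.6 CPM in hyperoxia (median 38.7, n = 7) and between 35.5 and 45.2 CPM in normoxia (median 38.9, n = 7), with log2 fold changes of 0.06 (SE 0.23, edgeR adjusted p = 0.913) with vehicle and 0.04 (SE 0.19, edgeR adjusted p = 0.913) with ATRA. SNAI1 had between 0 and 12 counts in each hyperoxia library and between 2 and 15 in each normoxia library, 30 against 66 in all. Its log2 fold change did not pass, at -0.31 (SE 1.16, edgeR adjusted p = 0.903) with vehicle and -2.02 (SE 1.05, edgeR adjusted p = 0.182) with ATRA. SNAI2 was below the filter, with 26 counts in 5 of 7 hyperoxia libraries and 3 counts in 1 of 7 normoxia libraries. The resulting ratio of 8.36 had a 95% exact interval of 2.56 to 43.1, which covers counting error only. SNAI2 remained rare in all libraries, at 0 to 2.12 CPM. Its highest count, 9 in hyperoxia with ATRA, lay above the limit of 3 counts.

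HMGA2 rose in hyperoxia in each of the 3 treatments. With vehicle its level was 29.5 and 27.8 CPM in normoxia and 99.9 and 71.5 CPM in hyperoxia. With ATRA it was 13.04, 18.1 and 22.9 CPM and 35.2, 29.1 and 39.7 CPM. In untreated cells it was 37.6 and 24.0 CPM and 53.9 and 69.7 CPM. In none of the 3 treatments did the oxygen groups overlap. The antisense gene HMGA2-AS1 overlaps 21.9% of the HMGA2 span and held 3.45% as many counts, at most 20.7% in any library. HMGA2-AS1 did not pass with vehicle, with ATRA or in untreated cells, at -1.08, -4.06 and -4.13 (edgeR adjusted p = 0.638, 0.0514 and 0.115). Its part in the HMGA2 value was not tested. The log2 fold change of HMGA2 was 1.58 (SE 0.26, edgeR adjusted p = 0.00013) with vehicle, 2.98-fold higher, 0.95 (SE 0.22, edgeR adjusted p = 0.00354) with ATRA and 1.00 (SE 0.30, edgeR adjusted p = 0.0344) in untreated cells. The first 2 passed in all 10 fits that left out 1 library. The third passed in 7 of 14, and without the library that stood apart it was 1.17 (edgeR adjusted p = 0.0151). It was lost without any one of the vehicle libraries, which share the fit but are not among the libraries compared. It was also lost without untreated hyperoxia replicate 2 or untreated normoxia replicate 1 or 2. Over the 14 fits the log2 fold change of HMGA2 in untreated cells lay between 0.67 and 1.32.

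In untreated cells, HMGA2 was the only member called, beside 15.2% of 15339 genes (7.57% higher and 7.58% lower), and 5 members had an unadjusted p under 0.05. In that fit the median log2 fold change of all genes was -0.10, and it was 0.01 in both other comparisons between oxygen levels. Over all 14 libraries, with treatment as a covariate, 5 members were called, 2 higher (VIM and HMGA2) and 3 lower (CDH1, EPCAM and FN1), beside 30.2% of all genes (15.4% higher and 14.8% lower). EPCAM, here and without the library that stood apart, passed the filter only through the normoxia libraries. The log2 fold changes were -1.55 (SE 0.21, edgeR adjusted p = 1.36e-05) for CDH1, -3.24 (SE 0.77, edgeR adjusted p = 0.00344) for EPCAM, -0.74 (SE 0.13, edgeR adjusted p = 0.000205) for FN1, 0.36 (SE 0.11, edgeR adjusted p = 0.0143) for VIM and 1.15 (SE 0.17, edgeR adjusted p = 4.3e-05) for HMGA2. ZEB2 did not pass, at 0.92 (SE 0.51, edgeR adjusted p = 0.188). With vehicle as a covariate in the 8 libraries without ATRA, 4 members were called, CDH1 and FN1 lower and VIM and HMGA2 higher, beside 18.9% of all genes (9.71% higher and 9.16% lower). Over 14 libraries without the one that stood apart, ZEB2 was called as well, at 1.20 (SE 0.21, edgeR adjusted p = 4.03e-05), which made 6 members, 3 in each direction, beside 36.0% of all genes (18.2% higher and 17.8% lower).

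**Figure D3:**
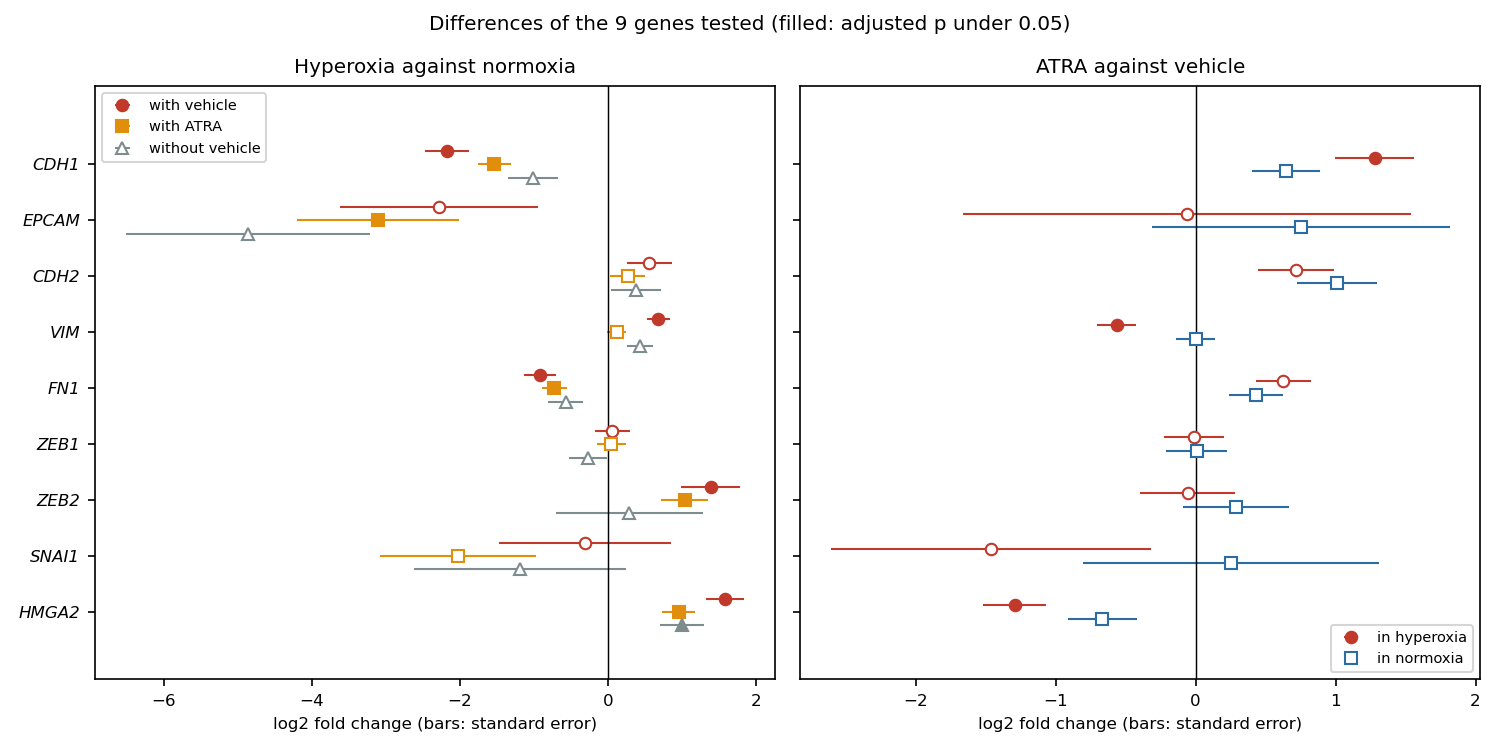
Log2 fold change (horizontal axis) with its standard error (bars) of the 9 genes tested, for hyperoxia against normoxia in 3 treatments (left) and for ATRA against vehicle at 2 oxygen levels (right), with filled symbols where the edgeR adjusted p was under 0.05. CDH1 and FN1 lie below 0 in all 3 oxygen comparisons and HMGA2 above 0, while under ATRA in hyperoxia CDH1 lies at 1.28, VIM at -0.56 and HMGA2 at -1.29.

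The second question was what ATRA did to these genes in hyperoxia. CDH1 rose and VIM and HMGA2 fell against vehicle, so that 3 of the 9 genes tested were called, 1 higher and 2 lower, beside 2.21% of all genes, 1.52% higher and 0.695% lower. This comparison and that of oxygen levels with vehicle share both hyperoxia vehicle libraries, and the signs of the 2 are therefore not independent of each other. The values stand side by side as follows. CDH1 was at -2.17 for hyperoxia and 1.28 for ATRA, VIM at 0.68 and -0.56, HMGA2 at 1.58 and -1.29, FN1 at -0.92 and 0.63 and ZEB2 at 1.38 and -0.06, all as log2 fold changes.

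E-cadherin transcripts in hyperoxia were 9.28 and 11.8 CPM with vehicle and 37.0, 21.0 and 18.4 CPM with ATRA, without overlap. Its log2 fold change was 1.28 (SE 0.28, edgeR adjusted p = 0.0153), 2.43-fold higher with ATRA, and the 3 ATRA values remained below the lowest normoxia value of 42.1 CPM. The highest of the 3, 37.0 CPM, was that of replicate 1, which stood apart, and without it the log2 fold change was 0.87 (edgeR adjusted p = 0.0887). The call was also lost without hyperoxia vehicle replicate 1 (edgeR adjusted p = 0.292) or replicate 2 (edgeR adjusted p = 0.105). Against the untreated hyperoxia libraries, at 46.5 and 21.5 CPM, the direction turned, to -0.42 (SE 0.32, edgeR adjusted p = 0.491).

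VIM was 1327 and 1159.5 CPM with vehicle and 689, 935 and 899 CPM with ATRA, again without overlap, a log2 fold change of -0.56 (SE 0.14, edgeR adjusted p = 0.0321). Without hyperoxia ATRA replicate 1, which held the lowest value, it was -0.44 (edgeR adjusted p = 0.136), and the call was lost as well without hyperoxia vehicle replicate 1 or 2 (edgeR adjusted p = 0.484 and 0.102). VIM-AS1, its antisense neighbour, was at -0.54 (edgeR adjusted p = 0.113). Against the untreated hyperoxia libraries, VIM was at -0.22 (SE 0.16, edgeR adjusted p = 0.485).

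HMGA2 showed the strongest response to ATRA among the 9 genes by p-value. It stood at 99.9 and 71.5 CPM with vehicle and 35.2, 29.1 and 39.7 CPM with ATRA in hyperoxia. Its log2 fold change was -1.29 (SE 0.22, edgeR adjusted p = 0.00171), a 2.45-fold lower level. HMGA2-AS1, its antisense neighbour, was at -3.55 (SE 1.56, edgeR adjusted p = 0.311). All 3 ATRA values of HMGA2 lay below the 4 hyperoxia values without ATRA. The call held in 9 of 10 fits that left out 1 library, and was lost without hyperoxia vehicle replicate 1 (-1.05, edgeR adjusted p = 0.16). Against the untreated libraries it was -0.83 (SE 0.27, edgeR adjusted p = 0.178). No member was called there by edgeR, beside 0.430% of all genes called. By edgeR, 2 members (CDH2 and HMGA2) had an unadjusted p under 0.05. The share of all genes at an unadjusted p under 0.05 was not counted, here or elsewhere.

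The remaining members did not pass in hyperoxia. FN1 was at 0.63 (SE 0.20, edgeR adjusted p = 0.12), with 244 and 271 CPM under vehicle below each of the ATRA values of 504, 376 and 312 CPM, and CDH2 at 0.72 (SE 0.27, edgeR adjusted p = 0.211), again with no overlap between vehicle and ATRA. FN1 passed without hyperoxia ATRA replicate 3, at 0.77 (edgeR adjusted p = 0.0457). ZEB1 and ZEB2 were at -0.01 (SE 0.21, edgeR adjusted p = 0.993) and -0.06 (SE 0.34, edgeR adjusted p = 0.965). SNAI1, with 1 to 4 counts in the ATRA libraries and 4 and 12 in the vehicle libraries, was at -1.46 (SE 1.14, edgeR adjusted p = 0.642), and EPCAM, with at most 4 counts in any of these 5 libraries, at -0.06 (SE 1.60, edgeR adjusted p = 0.994).

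In normoxia, no member was called between ATRA and vehicle by edgeR, beside 1.25% of all genes called (0.816% higher and 0.435% lower). DESeq2, which gave EPCAM and SNAI1 no adjusted p, called none either. By edgeR, 4 members had an unadjusted p under 0.05, a share not counted over all genes. The 4 were CDH2 at 1.01 (SE 0.29, edgeR adjusted p = 0.106), CDH1 at 0.65 (SE 0.24, edgeR adjusted p = 0.338), HMGA2 at -0.67 (SE 0.25, edgeR adjusted p = 0.336) and FN1 at 0.43 (SE 0.19, edgeR adjusted p = 0.511). CDH2 was 16.0 and 13.8 CPM with vehicle and 36.0, 34.3 and 19.3 CPM with ATRA, of which replicate 3 was the lowest. Without that replicate CDH2 passed, at 1.25 (edgeR adjusted p = 0.0226). HMGA2 was 13.04, 18.1 and 22.9 CPM with ATRA, below all 4 normoxia libraries without ATRA. Against the untreated normoxia libraries no member was called by edgeR, beside 0.437% of all genes called. Of the members, 2 (CDH2 and HMGA2) had an unadjusted p under 0.05 against those libraries. VIM was at -0.00 (SE 0.14, edgeR adjusted p = 1). The difference between the ATRA effects at the 2 oxygen levels was tested as an interaction. It passed for no member by edgeR, beside 0.140% of all genes called. Of the members 1, VIM, had an unadjusted p under 0.05, at -0.56 (SE 0.20, edgeR adjusted p = 0.461). DESeq2 gave an adjusted p for VIM (0.0594) and FN1 (0.89) alone and called neither.

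ATRA was also compared over both oxygen levels with oxygen as a covariate, an analysis added after the data had been seen. It assumes the same ATRA effect at both levels, which the lack of a passing interaction does not show. Among the 10 vehicle and ATRA libraries (6 against 4), 4 members were called, beside 2.81% of all genes (1.83% higher and 0.983% lower). CDH1 was higher with ATRA at 0.91 (SE 0.19, edgeR adjusted p = 0.00877), CDH2 at 0.85 (SE 0.20, edgeR adjusted p = 0.0166) and FN1 at 0.53 (SE 0.14, edgeR adjusted p = 0.0479), and HMGA2 was lower at -1.02 (SE 0.18, edgeR adjusted p = 0.00143). With the untreated libraries among the controls and without the one that stood apart (6 against 7), 3 members were called, beside 4.26% of all genes (2.63% higher and 1.63% lower). These were CDH2 at 0.86 (SE 0.16, edgeR adjusted p = 0.000689), FN1 at 0.42 (SE 0.12, edgeR adjusted p = 0.0388) and HMGA2 at -0.98 (SE 0.15, edgeR adjusted p = 0.000116), while CDH1, at 0.56 (SE 0.18, edgeR adjusted p = 0.0719), was not among them. The ratio of CDH2 to CDH1 counts in hyperoxia was 1.01 to 1.87 with ATRA and 1.70 to 2.54 with vehicle, and these ranges overlapped.

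Genes that work with the 10 members were described from 5 further lists, each read beside the share of all genes called in the same direction, which was 8.68% higher and 8.81% lower with vehicle, 11.4% and 11.3% with ATRA and 7.57% and 7.58% in untreated cells. Of 10 partners of cadherins and nectins at the junction, 9 were tested, and with vehicle 3 were lower (8.81% of all genes) and 1 higher (8.68%) in hyperoxia, with a median log2 fold change of -0.26 beside 0.01 over all genes. JUP, which encodes plakoglobin, fell from 735 ± 87.4 CPM to 208 ± 6.10 CPM (SD, n = 2 each), a log2 fold change of -1.82 (SE 0.18, edgeR adjusted p = 2.88e-07). CTNND1 (p120 catenin) was at -0.70 (SE 0.12, edgeR adjusted p = 0.000286), NECTIN2 at -0.68 (SE 0.18, edgeR adjusted p = 0.00931) and NECTIN3, the one that was higher, at 0.48 (SE 0.16, edgeR adjusted p = 0.0376). With ATRA, 4 were lower (11.3% of all genes) and none was higher, JUP at -1.03, CTNND1 at -0.70, VCL (vinculin) at -0.44 and NECTIN1 at -0.85. The calls of NECTIN2, NECTIN3 and NECTIN1 were lost in 2, 5 and 3 of the 10 fits that left out 1 library, NECTIN1 among them without hyperoxia ATRA replicate 1 (-0.73, edgeR adjusted p = 0.0685). In untreated cells 2 were lower (7.58% of all genes) and none higher, CTNND1 at -0.69 and JUP at -1.20.

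Regulators that maintain the epithelial state, most of them transcription factors and the others splicing regulators, moved in both directions. Of 13 listed, 9 were tested, and the other 4 had at most 3 counts in any library at either oxygen level. With vehicle 4 of the 9 were lower and 1 higher in hyperoxia, with a median log2 fold change of -0.72 over the 9. FOXA1, a pioneer factor of endodermal epithelia, was at -1.26 (SE 0.23, edgeR adjusted p = 0.000553), ELF3 at -1.07 (SE 0.18, edgeR adjusted p = 0.000224) and EHF at -1.57 (SE 0.41, edgeR adjusted p = 0.00987), both epithelial ETS factors, and the call of EHF was lost without hyperoxia vehicle replicate 1 or 2 or normoxia vehicle replicate 2. KLF4, a zinc finger factor of differentiated epithelium that also answers to stress, was higher, at 2.01 (SE 0.41, edgeR adjusted p = 0.0013). With ATRA present, 3 were lower and 2 higher, with FOXA1 at -1.70, EHF at -0.95, KLF4 at 2.34 and GRHL3 at 1.68, of which EHF was lost in 4 of 10 fits that left out 1 library. In untreated cells FOXA1, at -1.07, and ELF3, at -0.74, were lower and none was higher, and the call of ELF3 was lost without the library that stood apart (-0.63, edgeR adjusted p = 0.0955). Without untreated normoxia replicate 2 neither was called (edgeR adjusted p = 0.0875 and 0.155). Of 12 other factors known to drive EMT, among them TWIST1, 8 were tested and none passed with vehicle or with ATRA by edgeR or DESeq2, with 1 at an unadjusted p under 0.05 in each, their medians being -0.07 and -0.02. In untreated cells 1 of the 8 was lower, SOX4, at -0.81 (SE 0.20, edgeR adjusted p = 0.0129), and none was higher. SOX4 was also called by DESeq2 and without the library that stood apart (-0.93, edgeR adjusted p = 0.018), but not without untreated normoxia replicate 1 or without replicate 2.

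Other mesenchymal products moved in both directions. Of 12 listed, 10 were tested, and with vehicle 3 were higher (8.68% of all genes) and 1 lower (8.81%) in hyperoxia, with a median log2 fold change of 0.19. ACTA2, smooth muscle actin, rose from 12.2 ± 2.53 CPM to 47.4 ± 2.34 CPM (SD, n = 2 each), at 1.92 (SE 0.31, edgeR adjusted p = 0.000142), and AXL, a receptor tyrosine kinase, was at 1.19 (SE 0.13, edgeR adjusted p = 1.03e-06). CD44, the hyaluronan receptor, was at 0.55 (SE 0.13, edgeR adjusted p = 0.00571), a call lost without hyperoxia vehicle replicate 1 or one of the normoxia vehicle replicates. The gene that was lower was TAGLN (transgelin), another smooth muscle product, at -1.58 (SE 0.45, edgeR adjusted p = 0.016), a call lost without normoxia vehicle replicate 1 or one of the hyperoxia vehicle replicates. With ATRA the counts were again 3 higher (11.4% of all genes) and 1 lower (11.3%), with AXL at 0.91, ACTA2 at 1.40, CD44 at 0.38 and TAGLN at -1.36, of which CD44 was lost in 2 and TAGLN in 1 of the 10 fits that left out 1 library. In untreated cells 2 were higher (7.57% of all genes) and none lower, AXL at 1.29 and ACTA2 at 2.05, and both were still called without the library that stood apart, but ACTA2 was not without untreated normoxia replicate 2 (edgeR adjusted p = 0.0888). In the neighbourhood of HMGA2 in function, 6 of 7 listed genes of the HMGA family and the let-7 axis were tested, and with vehicle 2 were higher (IGF2BP2 at 1.03 and IGF2BP1 at 0.46, both RNA-binding proteins) and 1 lower (DICER1 at -0.51, the microRNA-processing enzyme), each call lost when any one of the 4 vehicle libraries was left out. With ATRA 2 were lower and none higher, LIN28B, a repressor of let-7 maturation, at -1.61 and DICER1 at -0.46. The call of DICER1 was lost without hyperoxia ATRA replicate 1 (-0.39, edgeR adjusted p = 0.0634) or normoxia ATRA replicate 2 (-0.35, edgeR adjusted p = 0.0833). In untreated cells 1 was higher, IGF2BP2 at 1.53, and 1 lower, DICER1 at -0.67. IGF2BP2 was not called without the library that stood apart (1.02, edgeR adjusted p = 0.0855), nor without untreated normoxia replicate 1 or 2 (edgeR adjusted p = 0.0784 and 0.109). DICER1 was still called without the library that stood apart (-0.87, edgeR adjusted p = 0.011), but not without untreated normoxia replicate 1 (-0.56, edgeR adjusted p = 0.165).

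With vehicle, KRT8, KRT18 and KRT19, keratins of simple epithelium, were lower in hyperoxia together with E-cadherin, while KRT7, another of them, was at -0.10 (SE 0.13, edgeR adjusted p = 0.688) and did not pass. The shares of all genes to read beside all marker counts between oxygen levels were 8.81% lower and 8.68% higher with vehicle. They were 11.3% and 11.4% with ATRA and 7.58% and 7.57% in untreated cells. Of the 6 epithelial markers, 4 were lower and none higher in hyperoxia with vehicle, with KRT18 at -2.13 (SE 0.17, edgeR adjusted p = 2.17e-08), KRT8 at -1.73 (SE 0.17, edgeR adjusted p = 2.73e-07) and KRT19 at -1.58 (SE 0.22, edgeR adjusted p = 1.84e-05) besides CDH1. With ATRA 4 were again lower, KRT18 at -1.58 and KRT8 at -1.13 besides CDH1 and EPCAM, the last of which passed the filter only through the normoxia libraries. There 1 was higher, KRT7 at 0.43, while KRT19, at -0.21 (SE 0.17, edgeR adjusted p = 0.416), did not pass. In untreated cells 3 were lower and none higher, KRT18 at -1.94, KRT8 at -1.54 and KRT19 at -2.13, and without the library that stood apart these 3 and CDH1 were lower. The few markers of other cell types that could be tested gave 1 call with vehicle (COL1A1), 2 with ATRA (THY1 and CDH5) and 2 in untreated cells (COL1A1 and CD14) between oxygen levels, all lower in hyperoxia and all at low levels, and their part in the results was not tested. Of these, CD14 was not called without the library that stood apart (edgeR adjusted p = 0.0552) or without untreated normoxia replicate 2 (edgeR adjusted p = 0.0665). COL1A1 with vehicle was lost in 3 and THY1 in 1 of the 10 fits that left out 1 library, and CDH5 was not called by DESeq2. With ATRA against vehicle in hyperoxia, 5 of the 6 epithelial markers were higher and none lower, beside 1.52% of all genes, and their median was 0.98 beside 0.00 over all genes. KRT8 was at 1.01 (SE 0.16, edgeR adjusted p = 0.000706), KRT18 at 0.97 (SE 0.16, edgeR adjusted p = 0.000937), KRT7 at 0.69 (SE 0.12, edgeR adjusted p = 0.00258) and KRT19 at 0.99 (SE 0.20, edgeR adjusted p = 0.00862). Without hyperoxia ATRA replicate 1, 4 of the 6 were still higher, CDH1 being the one lost. KRT7 was lost without hyperoxia vehicle replicate 1, and KRT19 when one or the other hyperoxia vehicle replicate was left out (edgeR adjusted p = 0.0891 and 0.214). Against the untreated hyperoxia libraries 1 of the 6 was called, beside 0.430% of all genes. This was KRT19, at 1.59 (SE 0.26, edgeR adjusted p = 0.0123). There KRT8 was at 0.84 (SE 0.18, edgeR adjusted p = 0.0529), KRT18 at 0.77 (SE 0.17, edgeR adjusted p = 0.0634) and KRT7 at 0.45 (SE 0.13, edgeR adjusted p = 0.144), while CDH1, as given above, turned to -0.42. In normoxia none of the 6 was called by edgeR or DESeq2, beside 1.25% of all genes called by edgeR. By edgeR, 3 of the 6 had an unadjusted p under 0.05.

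From the other lists, ATRA in hyperoxia raised ELF3, at 1.67 (SE 0.17, edgeR adjusted p = 5.56e-06), from 85.9 ± 18.1 CPM (SD, n = 2) to 275 ± 45.4 CPM (SD, n = 3), and FOXA1, at 0.85 (SE 0.22, edgeR adjusted p = 0.0437). It also raised JUP, at 0.73 (SE 0.17, edgeR adjusted p = 0.0188), SOX4, a factor on the list of EMT drivers, at 0.83 (SE 0.18, edgeR adjusted p = 0.0137), and TGFBI, a TGF-beta-induced matrix protein, at 1.17 (SE 0.14, edgeR adjusted p = 2.94e-05). S100A4, a calcium-binding protein of motile cells, fell, at -0.48 (SE 0.12, edgeR adjusted p = 0.0313). Of all genes, 1.52% were higher and 0.695% lower in this comparison. No gene of the HMGA and let-7 list passed by edgeR or DESeq2, with 2 at an unadjusted p under 0.05. Without hyperoxia ATRA replicate 1, ELF3, SOX4 and TGFBI were still called and JUP, FOXA1 and S100A4 were not. FOXA1 was lost in 9 of the 10 fits that left out 1 library, JUP, SOX4 and S100A4 when one or the other hyperoxia vehicle replicate was left out, and S100A4 also without normoxia vehicle replicate 2. Against the untreated hyperoxia libraries, ELF3, SOX4, TGFBI and S100A4 were called in the same directions, beside 0.430% of all genes. JUP, at 0.32 (SE 0.19, edgeR adjusted p = 0.38), and FOXA1, at 0.51 (SE 0.25, edgeR adjusted p = 0.309), were not called there. In normoxia the genes called from these lists were ELF3 at 1.00, FOXA1 at 1.30, TGFBI at 0.99 and S100A4 at -0.65 (edgeR adjusted p = 0.00166, 0.000855, 0.000263 and 0.00481). The shares of all genes in normoxia were 0.816% higher and 0.435% lower. There ELF3 was lost without normoxia vehicle replicate 1, FOXA1 without replicate 2 and S100A4 when one or the other was left out.

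**Figure D4:**
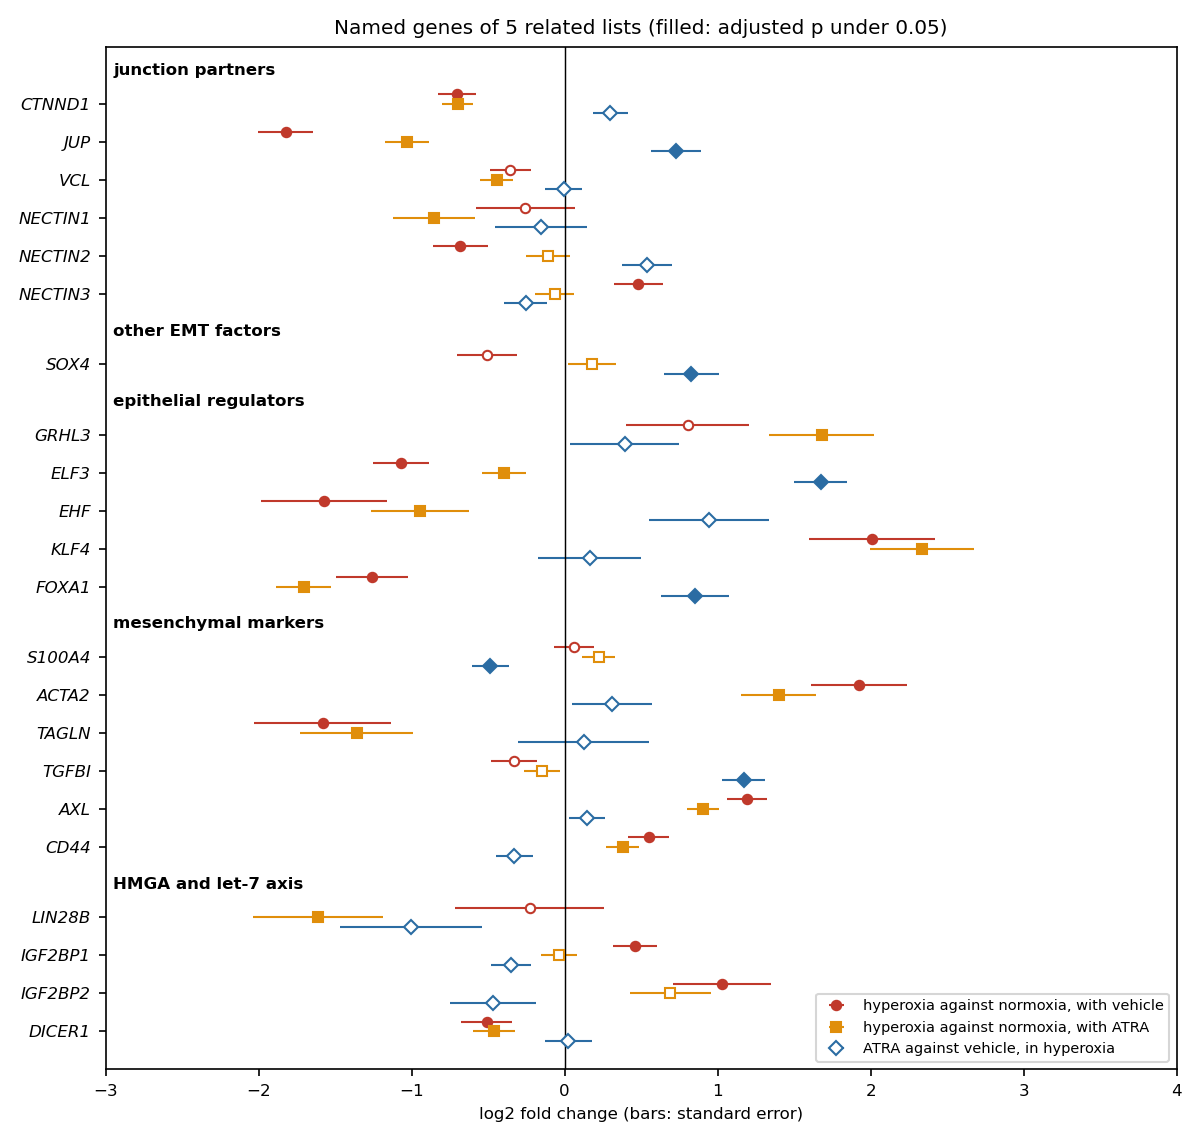
Log2 fold change (horizontal axis) with its standard error (bars) of the named genes of 5 related lists (rows) in 3 comparisons, with filled symbols where the edgeR adjusted p was under 0.05. KLF4 lies farthest to the right, at 2.34 with ATRA, and ELF3 lies at -1.07 for hyperoxia with vehicle and at 1.67 for ATRA in hyperoxia.

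Some genes followed a member closely over the 14 libraries, as described by Pearson's r of log2 CPM, without a test, since all points share the split by oxygen and the differences in depth. CDH1 was followed most closely by CAMK2N1 (r = 0.978), an inhibitor of calmodulin-dependent kinase II, CD24 (r = 0.961), a surface glycoprotein of epithelial cells, and CNTN1 (r = 0.958), a neural adhesion molecule. CD24 was also among the 3 nearest to FN1 (r = 0.941). CDH2 was followed by LHFPL2 (r = 0.921), FAT3 (r = 0.917), an atypical cadherin, and TGFB2 (r = 0.914), a TGF-beta ligand. HMGA2 was followed by MKLN1 (r = 0.948), UBASH3B (r = 0.923) and KYNU (r = 0.921), and VIM by COTL1 (r = 0.948), an actin-binding protein, PFDN1 (r = 0.945) and MYC (r = 0.922). For ZEB1 the highest r was 0.838. The nearest to ZEB2, ELL, went from r = 0.985 to 0.931 without the library that stood apart, in which ZEB2 had no count.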

How the data were processed

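RNA was extracted from A549 cells and sequenced by the authors with a directional (strand-keeping) kit. Raw counts of reads per gene were deposited by the authors, 1 table per library, made with Trimmomatic 0.38 (reads under 50 bases dropped), HISAT2 on hg38 and HTSeq, per the submitters' processing notes and methods; the annotation release and the strand setting of the counting were not given in the sources used here. Here, edgeR 4.0.16 (R 4.3.3) was run on these counts by its quasi-likelihood test after TMM scaling and filterByExpr. P-values were adjusted over all genes tested (Benjamini-Hochberg), with calls at an adjusted p under 0.05. Vehicle and ATRA libraries were fitted together in 4 groups, and untreated cells in a fit of 14 libraries in 6 groups. CPM levels are on 1 TMM scale over these 14 libraries, which held 2642377 to 5605072 counts. Intervals and floors of 3 counts cover counting error only. Likeness used log2 CPM with a prior count of 2. DESeq2 1.42.0, RLE factors, no filter, other sets of samples and leaving out each library were alternatives, and fits of 13 libraries or with oxygen as a covariate were added after seeing the data. The fits were tested on simulated data. 1 library, labelled hyperoxia in its title but with an unrelated treatment, was left out of all comparisons. Replicates carry no pairing. All members were named. From each other list up to 4 called genes were named, smallest p first, and exceptions are marked. 1 gene of the mesenchymal list is not reported here. For each member, up to 3 genes with the highest correlation were named. The members and lists were chosen with earlier results of these data known. Overlapping genes and the MALAT1 and TALAM1 pair were chosen after values were seen. Positions and promoters are from RefSeq (GRCh38.p14) and representative transcripts from GENCODE 44. Summed marker lists of epithelial, fibroblast, endothelial and blood cells were read in every library.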

Additional observations from a re-analysis of the deposited data

Results flagged for a closer look

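KRT19, a keratin of simple epithelium, was by edgeR the one gene among those named for which the effect of ATRA differed between the oxygen levels, while DESeq2 called JUP and KRT7 and gave KRT19 no adjusted p. The difference of its log2 fold changes, hyperoxia minus normoxia, was 1.37 (SE 0.28, edgeR adjusted p = 0.0497). The call was lost in 8 of the 10 fits that left out 1 library, among them without hyperoxia ATRA replicate 1 (1.17, edgeR adjusted p = 0.0706), and in the fit of 14 libraries (1.36, edgeR adjusted p = 0.517).

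1 library entered no comparison because its title names hyperoxia and its treatment label names an unrelated procedure. Scaled together with the 14 others, it held 4 members above all 4 normoxia libraries without ATRA. The 4 are listed for that reason, and the share of all genes above those libraries was not counted. CDH2 was at 20.723 CPM where the highest of those 4 was at 16.8, VIM at 1040.3 CPM where the highest was at 842, ZEB2 at 12.216 CPM where the highest was at 7.38, and HMGA2 at 49.3 CPM where the highest was at 38.2. Over all assigned normoxia libraries, those with ATRA included, CDH2 ran from 14.1 to 36.4 CPM, a range that holds its value here. No condition was assigned to this library from these values.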

How the results depend on the processing

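The numbers of members called (5 with vehicle, 5 with ATRA, 3 for ATRA in hyperoxia, 0 in normoxia, 0 for the interaction and 1 in untreated cells) stayed within 1.5 times under the other settings fixed at the outset, with 6 exceptions. These were 3 with ATRA and 1 for ATRA in hyperoxia in the fit of 14 libraries, 0 for ATRA in hyperoxia against untreated controls, and in untreated cells 3 by DESeq2, 3 without the filter on low counts and 0 with the compared groups alone. Leaving out 1 library gave 2 to 5, 3 to 5, 0 to 4, 0 to 1, 0 to 0 and 0 to 3 members in the same order, where a lone sample of a group is assumed to vary like the others. No paired analysis was possible because the library numbers in the labels are each used once, so that no group shares replicate numbers with another.

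Over all genes, calls moved by more than 1.5 times in several fits. With vehicle, 2616 became 4665 with the compared groups alone, 1420 in the fit of 14 libraries, 4635 and 5945 over 14 and 13 libraries with treatment as a covariate. With ATRA, 3391 became 1975 with 14 libraries. For ATRA in hyperoxia, 331 became 522 without the filter, 116 with 14 libraries, 66 against untreated controls and 703 over both oxygen levels with 13 libraries. For ATRA in normoxia, 187 became 300 without the filter, 70 with 14 libraries and 67 against untreated controls. The interaction's 21 became 94 by DESeq2, 91 without the filter and 4 with 14 libraries, and the 2324 in untreated cells became 58 with the compared groups alone. Leaving out 1 library gave 1386 to 3175, 2715 to 3359, 83 to 449, 56 to 267, 4 to 28 and 969 to 7364 calls, in the order above.

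Some log2 fold changes of members changed sign. For hyperoxia against normoxia with vehicle, ZEB1 was at -0.048 over 14 and -0.018 over 13 libraries with treatment as a covariate, at -0.11 over the 8 without ATRA and between -0.062 and 0.14 when 1 library was left out, and SNAI1 was between -0.93 and 0.047. With ATRA, ZEB1 was between -0.15 and 0.17. For ATRA in hyperoxia against untreated controls, CDH1 was at -0.42, EPCAM at 1.53, ZEB1 at 0.27 and ZEB2 at 0.94. Over both oxygen levels, EPCAM was at 0.47 with 10 and 0.15 with 13 libraries, ZEB2 at 0.095 and 0.068, and ZEB1 at 0.018 with 13. With 1 library left out, EPCAM lay between -1.20 and 3.96, ZEB1 between -0.20 and 0.14 and ZEB2 between -0.29 and 0.18. For ATRA in normoxia against untreated controls, EPCAM was at -0.21, VIM at 0.097, ZEB1 at -0.045 and SNAI1 at -0.041, while VIM was at 0.0058 with the compared groups alone and between -0.11 and 0.095 with 1 library left out, and ZEB1 was at -0.0035 without the filter and between -0.091 and 0.12 with 1 library left out. In the interaction, EPCAM lay between -1.95 and 3.21, FN1 between -0.086 and 0.42 and ZEB1 between -0.21 and 0.12. In untreated cells ZEB2 lay between -7.95, without hyperoxia replicate 2, where the remaining library had no count, and 1.33. The cause of these changes was not tested. Depth limited EPCAM, SNAI1 and SNAI2, which had few counts in any library.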

Other observations

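In the library that was put in no group, the other 6 members stood as follows on the scale of 15 libraries. CDH1 was at 17.7 CPM, FN1 at 281 CPM and ZEB1 at 32.7 CPM. These and EPCAM lay below every assigned normoxia library, and the share of all genes that did so was not counted. EPCAM and SNAI1 had 3 counts each, or 0.654 CPM, and SNAI2 had 1 count, or 0.218 CPM.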
